A study of Mus musculus with 4 samples.

Results

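The 42 genes described here encode enzymes of the urea cycle and of amino acid breakdown in liver. They were listed by name under a rule that uses no measured value, although earlier results of these data were known. They are sorted here into 10 pathway groups, and all 42 were found by symbol among the 37315 genes of the count tables. All 42 also passed the filter on low counts, so no member is missing from the values below. The libraries were made from liver of C57BL/6 mice aged 23 weeks. One group was wild type and the other carried a mutation of Foxo1 that changes the coding sequence but not the protein, and each group had 2 libraries. The labels used here give neither the site of the mutation, nor zygosity, sex or feeding state. Nothing in the labels says that the libraries of a group came from different animals, so every p-value below measures the spread between these libraries, which may be technical.

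Amino acids that are not needed for protein synthesis lose their nitrogen in the liver, and the carbon skeletons enter gluconeogenesis, ketogenesis or oxidation. Periportal hepatocytes pass the nitrogen through carbamoyl phosphate, citrulline, argininosuccinate and arginine to urea, which leaves in the urine. Many of these enzymes are known to be induced by glucagon, glucocorticoids and fasting and restrained by insulin, the hormone that also keeps Foxo1 out of the nucleus. The transcripts of this nitrogen-handling programme were compared between livers with and without the synonymous Foxo1 change.

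The libraries held 73551737 to 95908652 counts, and the 42 members took 3.36% and 3.87% of them in wild type replicates 1 and 2 and 3.83% and 3.58% in mutant replicates 1 and 2. The lowest count of any member in any library was 585, so counting error was small for every member. Values are CPM, read counts scaled to the library total with TMM factors, given per library or as mean ± SD (n = 2). A log2 fold change is that of mutant against wild type libraries. Foxo1 itself was at 44.0 and 54.8 CPM in the wild type libraries and 33.6 and 53.4 CPM in the mutant ones, and its groups overlapped; its exons share 674 bases with Gm20402 on the opposite strand. Its level does not check the labels, because a synonymous change need not alter the amount of transcript. The tissue label fitted the hepatocyte markers, with albumin at 64783 to 80698 CPM. Of the 5 kidney tubule markers 2 were at 0 counts in all 4 libraries and Lrp2 had 61 to 251 counts, the highest of that list. Of the 6 exocrine pancreas markers 3 were at 0 in all libraries, while Cela1 had 1479 to 1893 counts. Of the 4 intestine markers none was at 0 in all libraries, with Fabp2 at 1413 to 2481 and Lgals4 at 378 to 738 counts.

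None of the 42 members passed an adjusted p below 0.05 in edgeR's quasi-likelihood test, where 0.341% of the 14657 genes tested did. At an unadjusted p below 0.05 the count of members was 0 in edgeR and 0 in DESeq2, and limma-voom had 1, Agxt. The share of all genes below that unadjusted value was 6.19% in edgeR, 5.01% in DESeq2 and 5.99% in limma-voom. After adjustment DESeq2, which called 0.764% of all genes, and limma-voom, which called 0.0478%, also called 0 members. The log2 fold changes of the members lay between −0.21 in Agxt and 0.24 in Cth, and 38 of the 42 were smaller than 0.2 in size. Their median was −0.01, with 18 positive and 24 negative, beside a median of −0.0013 over all genes tested, where 49.7% were positive. The median size of a member's log2 fold change was 0.09. The median difference between replicates had a size of 0.11 in wild type and 0.09 in mutant liver. The same medians over all genes tested were 0.12 between groups, 0.16 in wild type and 0.17 in mutant liver. A fold change compares means of 2 libraries and a replicate difference compares single libraries, so these sizes are not directly comparable.

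The 95% confidence intervals bound how far each transcript could have moved. For all 42 members the interval of the log2 fold change stayed inside a 2-fold change in either direction. It stayed inside 1.5-fold for 40 members, with Cth and Bhmt as the exceptions, and inside 1.25-fold for 23. The lowest bound, −0.60, and the highest, 0.73, both belonged to Bhmt. These intervals use a spread that edgeR shares among genes, and with 2 libraries in a group they do not show that any 1 member was unchanged.

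**Figure D1:**
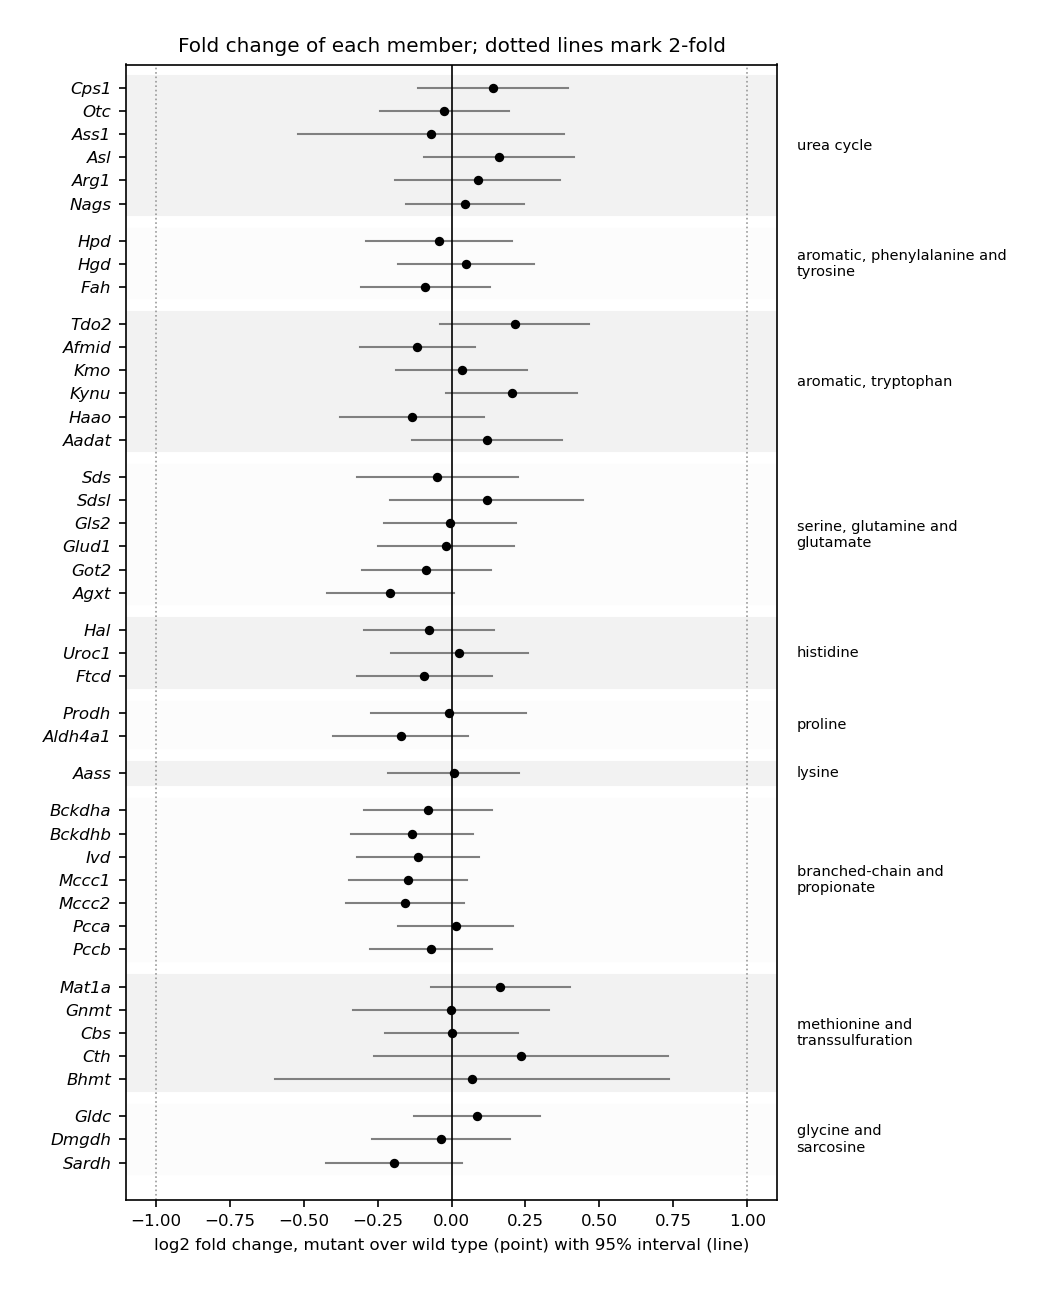
Log2 fold change of each of the 42 members (points, mutant over wild type) with its 95% interval (lines), grouped by pathway; the solid line marks 0 and the dotted lines mark a 2-fold change. Every interval includes 0 and none reaches a dotted line.

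In 16 of the 42 members (38.1%) the values of the groups did not overlap, 4 with both mutant libraries higher and 12 with both lower. Among all genes tested the groups did not overlap in 34.1%, with 17% higher and 17% lower. The total share among the members was therefore near that of all genes. Its split was uneven, with 12 lower and 4 higher, and this was not tested. In 12 members, Fah, Tdo2, Afmid, Kynu, Got2, Agxt, Hal, Ivd, Mccc1, Mccc2, Gldc and Sardh, the log2 fold change was larger in size than the difference between replicates in both groups. That was 28.6% of the members and 23.3% of all genes tested.

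The members with the smallest unadjusted p were Agxt and Sardh among those lower in mutant liver and Kynu and Tdo2 among those higher. In GRCm38 these genes lie at chr1:93135240-93145421 (Agxt, plus strand), chr2:27188393-27248337 (Sardh, minus), chr2:43555329-43682715 (Kynu, plus) and chr3:81957090-81976202 (Tdo2, minus). Their promoters are of interest because Foxo1 binds DNA through a forkhead domain. RefSeq promoter windows (GRCm38.p6, the same assembly as mm10) were matched by symbol for 33 of the 42 members, Kynu not among them. Stretches before the RefSeq start site are shown 5′ to 3′ on the strand of the gene, and capitals mark the short forkhead core AAACA read on either strand. For Agxt all 250 bases before the start are shown. Other GENCODE transcripts of Sardh and Tdo2 begin further upstream, and 67 and 250 of the 250 bases are annotated there as UTR. For Sardh the 139 bases upstream of that stretch are given, and for Tdo2 30 bases around the core.
Agxt, chr1:93134990-93135239, plus strand: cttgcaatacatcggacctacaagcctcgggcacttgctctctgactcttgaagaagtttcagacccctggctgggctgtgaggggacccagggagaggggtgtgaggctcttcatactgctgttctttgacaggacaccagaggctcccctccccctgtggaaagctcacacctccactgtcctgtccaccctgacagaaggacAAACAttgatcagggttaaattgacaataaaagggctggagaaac
Sardh, chr2:27247415-27247553, minus strand: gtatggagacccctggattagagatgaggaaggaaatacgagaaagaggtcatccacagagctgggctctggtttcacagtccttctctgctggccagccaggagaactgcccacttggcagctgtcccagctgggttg
Tdo2, chr3:81975891-81975920, minus strand: cgccctgctagcAAACAagctgtgccccaa

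In these 250 bases the short core was found in Agxt and Tdo2 and not in Sardh. A second match in Agxt spans the start site and is not shown whole. Over windows of 300 bases that include the first bases of the transcript, it was found in 11 of 33 members (33.3%) and in 54.1% of 27025 genes. The longer forkhead core GTAAACA, which contains the short core, was in 0 of the 33 and in 4.05% of all genes. The cAMP response element TGACGTCA was in 0 of the 33 members against 2.03% of all genes, and the C/EBP-like palindrome TTGCGCAA in 0 against 0.207%. All motifs were searched on both strands, the short core was added after the longer motifs had been counted, and a match is a string of letters in this window, not a site of binding.

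The 6 urea cycle members had log2 fold changes of −0.07 to 0.16, with a median of 0.07. Cps1, which makes carbamoyl phosphate from ammonia and is the entry enzyme of the cycle, was at 4652 and 5660 CPM in the wild type libraries and 5818 and 5554 CPM in the mutant ones. The first wild type library was the low one, and the other wild type library lay between the mutant libraries. Ass1, argininosuccinate synthase, was at 3907 and 5914 CPM in the wild type libraries and 4746 and 4619 CPM in the mutant ones. Here the wild type libraries bracketed both mutant libraries, and the log2 fold change was −0.07 (SE 0.19). Arg1, the arginase that releases urea, was bracketed in the same way, with 1367 and 1781 CPM in the wild type libraries and 1675 and 1672 CPM in the mutant ones.

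Asl, argininosuccinate lyase, had the smallest p of the cycle. It was at 506 and 582 CPM in the wild type libraries and 652 and 562 CPM in the mutant ones, and its groups overlapped (log2 fold change 0.16 with an SE of 0.12; adjusted p in edgeR 0.981). Leaving out 1 library gave Asl log2 fold changes of 0.05 to 0.26. Otc, the mitochondrial ornithine transcarbamylase encoded on the X chromosome, was the steadiest of the cycle, at 558, 561, 556 and 545 CPM in wild type replicates 1 and 2 and mutant replicates 1 and 2. Both mutant libraries of Otc were below both wild type libraries, by a log2 fold change of only −0.02 (SE 0.10). Nags, which makes the N-acetylglutamate that activates carbamoyl phosphate synthetase, was at 44.1 and 46.1 CPM in the wild type libraries and 44.6 and 48.5 CPM in the mutant ones. Exons of Nags share 443 bases with Gm11586 on the opposite strand, and reads carry no strand with the kit used.

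**Figure D2:**
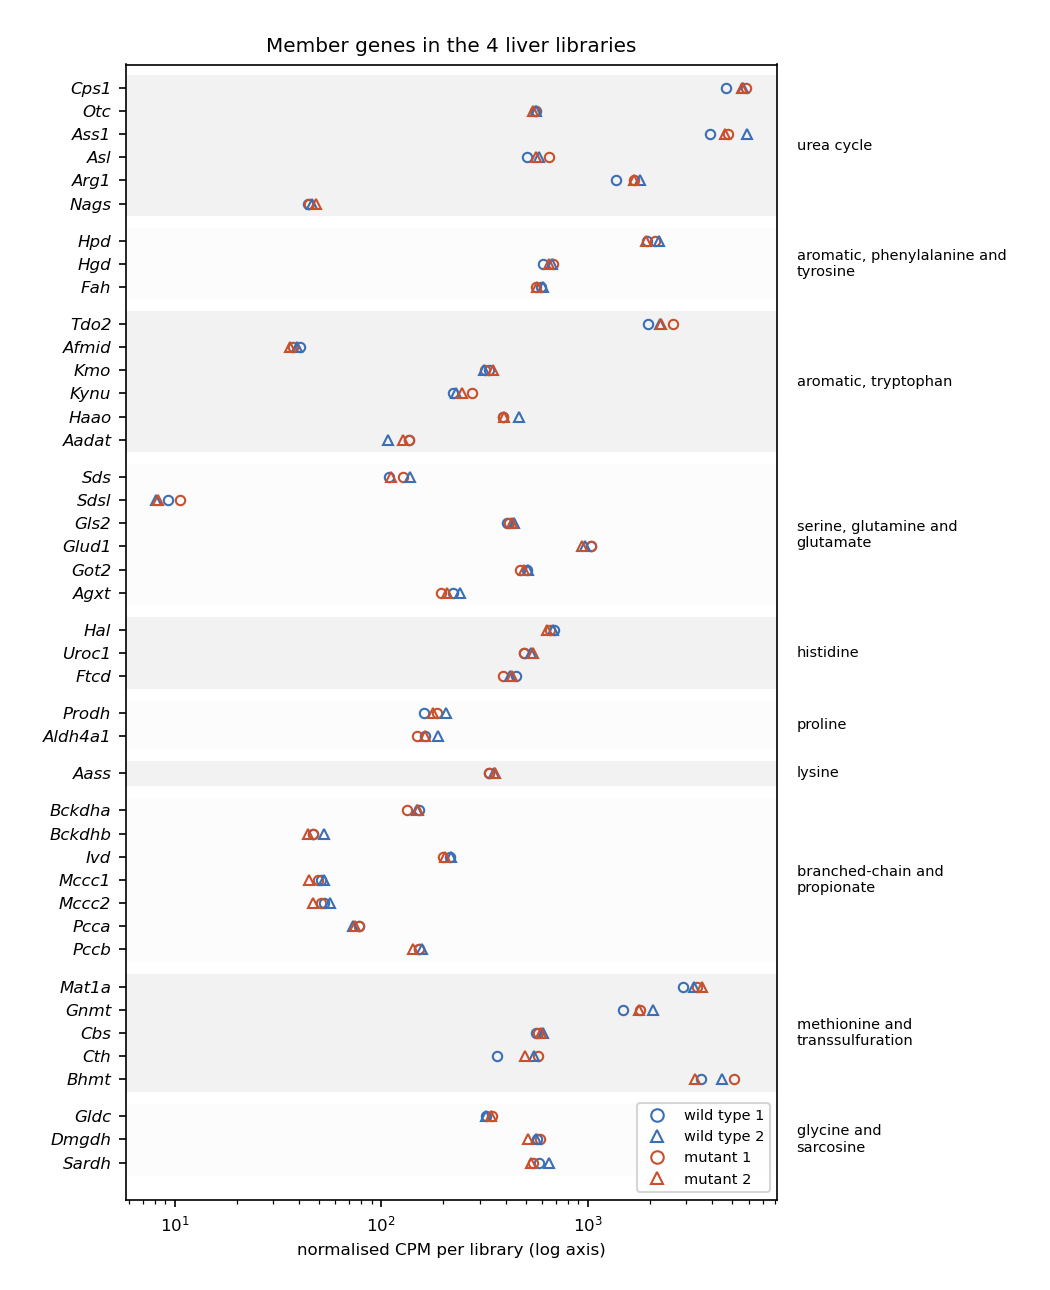
Normalised CPM (log axis) of the 42 members in each library, grouped by pathway; blue marks wild type and red mutant, circles replicate 1 and triangles replicate 2. Levels run from about 8.10 CPM in Sdsl to 5914 CPM in Ass1, and in Cps1, Arg1, Gnmt and Cth the blue circle of wild type replicate 1 is the low point.

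The tyrosine branch breaks the ring of tyrosine in steps catalysed by Hpd, Hgd and Fah. Hpd, which forms homogentisate, was at 1924 and 2210 CPM in the wild type libraries and 2108 and 1907 CPM in the mutant ones. Hgd, which opens the ring, was at 607 and 671 CPM in the wild type libraries and 674 and 647 CPM in the mutant ones. Both overlapped between the groups. Fah, the last enzyme of the branch, was at 592 and 607 CPM in the wild type libraries and 563 and 565 CPM in the mutant ones. Both mutant libraries were the lower ones, a log2 difference of −0.09 with an SE of 0.10 (adjusted p in edgeR 1.0).

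The tryptophan branch leads through kynurenine towards NAD, and its first enzyme Tdo2, tryptophan dioxygenase, is a classical glucocorticoid-induced liver gene. Tdo2 was at 1943 and 2230 CPM in the wild type libraries and 2577 and 2262 CPM in the mutant ones. Both mutant libraries were above both wild type libraries, although mutant replicate 2 exceeded wild type replicate 2 by little (log2 fold change 0.21 with an SE of 0.12; adjusted p in edgeR 0.917). Kynu, kynureninase, showed the same order, with 224 and 230 CPM in the wild type libraries and 276 and 246 CPM in the mutant ones (0.20 with an SE of 0.10; adjusted p in edgeR 0.886). Of the 6 tryptophan members these were the 2 whose mutant libraries were both higher, and their 95% intervals, −0.04 to 0.46 and −0.02 to 0.42, included 0.

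Afmid, the formamidase of the second step, had both mutant libraries lower, at 40.6 and 38.9 CPM in the wild type libraries and 37.2 and 36.2 CPM in the mutant ones. Its exons share 1566 bases with Gm20708 on the same strand and 83 bases with Tk1 on the other. Reads of the shared bases may have been left out of the counts or mixed, as the counting mode is not given. Haao, which makes the precursor of quinolinate, was at 390 and 464 CPM in the wild type libraries and 388 and 391 CPM in the mutant ones, so that wild type replicate 2 stood apart from the other 3 libraries. Kmo, the kynurenine hydroxylase, ranged from 315 to 346 CPM over the 4 libraries. Aadat, an aminotransferase of both kynurenine and the lysine intermediate aminoadipate, was at 136 and 107 CPM in the wild type libraries and 136 and 128 CPM in the mutant ones.

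Among the enzymes of serine, glutamine, glutamate and glyoxylate, Agxt had the smallest p of all 42 members. It encodes alanine-glyoxylate aminotransferase, which removes glyoxylate before it can become oxalate. Agxt was at 223 and 240 CPM in the wild type libraries and 195 and 207 CPM in the mutant ones, a mean of 232 ± 11.98 against 201 ± 8.51 CPM. Both mutant libraries were lower, and the log2 fold change of −0.21 (SE 0.10) came with an edgeR adjusted p of 0.848, its 95% interval running from −0.42 to 0.0081. Got2, the mitochondrial aspartate aminotransferase, also had both mutant libraries lower, with 506 and 512 CPM in the wild type libraries and 472 and 488 CPM in the mutant ones. Its exons share 434 bases with Gm45760 on the opposite strand, and the annotation holds a pseudogene, Got2-ps1.

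The other genes of that group overlapped between wild type and mutant liver. Gls2, the liver glutaminase that feeds ammonia to the urea cycle, ranged from 405 to 441 CPM, with the mutant libraries at 415 and 428 CPM. Glud1, glutamate dehydrogenase, ranged from 942 to 1035 CPM. Sds, serine dehydratase, was at 109 and 138 CPM in the wild type libraries and 128 and 111 CPM in the mutant ones, and its exons share 360 bases with Plbd2 on the opposite strand. The related Sdsl was the lowest member, at 9.31 and 8.10 CPM in the wild type libraries and 10.6 and 8.32 CPM in the mutant ones.

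Histidine is deaminated by Hal to urocanate, which Uroc1 hydrates. Ftcd acts further down the same pathway and links it to folate. Hal was at 684 and 676 CPM in the wild type libraries and 654 and 637 CPM in the mutant ones, with both mutant libraries lower. Uroc1 was at 490 and 528 CPM against 492 and 545 CPM, so that in both groups replicate 2 was the higher. Ftcd had the smallest p of the 3, at 450 and 421 CPM in the wild type libraries and 389 and 428 CPM in the mutant ones, and overlapped (log2 fold change −0.09 with an SE of 0.11; adjusted p in edgeR 1.0). Proline oxidation starts with Prodh, at 160 and 205 CPM in the wild type libraries and 186 and 177 CPM in the mutant ones. Aldh4a1, which completes it to glutamate, was at 163.4 and 189 CPM in the wild type libraries and 150 and 163.1 CPM in the mutant ones. The mutant libraries of Aldh4a1 were the lower ones, by a very small margin at the nearest pair, and 1595 bases of its exons are shared with Gm21969 on the same strand (−0.17 with an SE of 0.11; adjusted p in edgeR 0.955). Aass, the entry enzyme of lysine breakdown, was at 332 and 352 CPM in the wild type libraries and 332 and 356 CPM in the mutant ones.

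Among the pathway groups of 3 or more members, branched-chain and propionate breakdown had the highest share of members with 1 sign. Of its 7 members 6 were negative and 1 positive in log2 fold change, with a median of −0.11. In 4 of the 7 both mutant libraries were lower, beside 17% of all genes tested. None of the 7 had an unadjusted p below 0.05 in edgeR, DESeq2 or limma-voom. Mccc1 and Mccc2 encode the subunits of methylcrotonyl-CoA carboxylase in leucine breakdown. Mccc1 was at 51.2 and 52.8 CPM in the wild type libraries and 49.3 and 44.6 CPM in the mutant ones, and Mccc2 at 53.0 and 56.3 CPM in the wild type libraries and 51.1 and 46.9 CPM in the mutant ones. For both, mutant replicate 2 was the lowest library, and Mccc2 had the smallest p of the group (log2 fold change −0.16 with an SE of 0.09; adjusted p in edgeR 0.940). Exons of Mccc1 overlap 3 opposite-strand genes, among them Mccc1os.

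Ivd, the isovaleryl-CoA dehydrogenase of the same leucine branch, was at 216 and 219 CPM in the wild type libraries and 199 and 203 CPM in the mutant ones, closely spaced within both groups (−0.11, SE 0.10). Bckdhb, a subunit of the branched-chain ketoacid dehydrogenase that commits all 3 branched-chain amino acids to breakdown, had mutant libraries at 46.7 and 44.1 CPM. Its wild type libraries were at 46.7 and 52.8 CPM, so wild type replicate 1 and mutant replicate 1 were nearly equal. Bckdha, its partner subunit, was at 152 and 149 CPM in the wild type libraries and 133 and 151 CPM in the mutant ones and overlapped. Its exons share 1171 bases with B3gnt8 on the opposite strand. The propionyl-CoA carboxylase subunits Pcca and Pccb ranged from 72.9 to 77.7 and from 143 to 158 CPM, with log2 fold changes of 0.01 and −0.07.

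Among the other genes of branched-chain and propionate breakdown, from transaminase to methylmalonyl-CoA mutase, the signs rested on mutant replicate 2. Of 18 tested, 16 were negative in log2 fold change; their median was −0.06 and 0 were past the adjusted threshold in edgeR. The median deviation from each gene's mean was 0.02, 0.04 and 0.03 in wild type replicates 1 and 2 and mutant replicate 1, and −0.10 in mutant replicate 2. Without mutant replicate 2, 8 of the 18 were negative and their median was 0.0085. Together with the members 22 of 25 were negative, 3 (Pcca, Ppm1k and Mcee) were positive, and both mutant libraries were lower in 8 and higher in 0. Without mutant replicate 2, 14 of the 25 were negative, with a median of −0.03, while 6 of the 7 members were. Over all genes tested 50.3% were negative, and both mutant libraries were lower in 17% and higher in 17%. The 25 genes share their libraries and their mitochondria, so their signs are not independent.

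**Figure D3:**
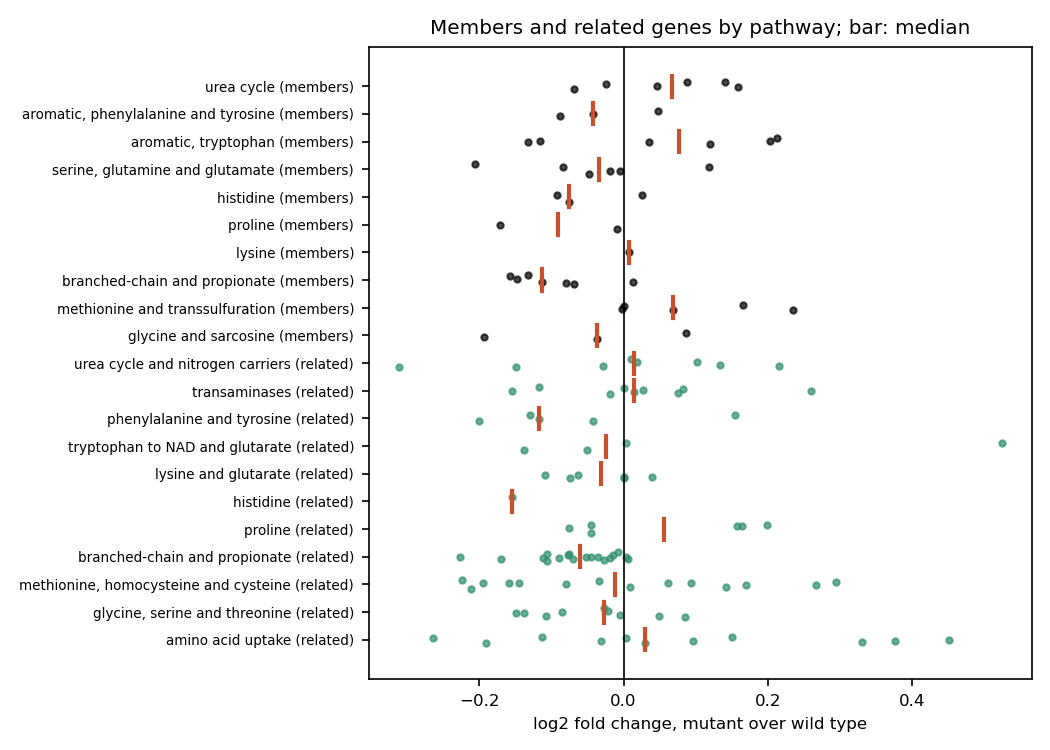
Log2 fold change (mutant over wild type) of the members (black) and of related genes of the same pathways (green), 1 point per gene tested, with the median of each group as a red bar; vertical position within a group is random. The branched-chain and propionate points lie mostly left of 0, with medians of −0.11 for members and −0.06 for related genes; without mutant replicate 2 these were −0.10 and 0.0085.

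Methionine is activated by Mat1a, used by methyltransferases such as Gnmt, and then either rebuilt from homocysteine by Bhmt or drained to cysteine by Cbs and Cth. Mat1a was at 2898 and 3262 CPM in the wild type libraries and 3357 and 3549 CPM in the mutant ones, with both mutant libraries higher (log2 fold change 0.17 with an SE of 0.11; adjusted p in edgeR 0.967). Cbs was nearly level, at 562 and 603 CPM in the wild type libraries and 571 and 595 CPM in the mutant ones. Gnmt was at 1484 and 2076 CPM in the wild type libraries and 1789 and 1765 CPM in the mutant ones, with the mutant libraries close together between 2 distant wild type libraries.

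Cth had the largest log2 fold change of the members, 0.24, and the second largest SE, 0.20. Its values were 364 and 548 CPM in the wild type libraries and 574 and 499 CPM in the mutant ones, so wild type replicate 2 lay between the mutant libraries and wild type replicate 1 was low. Without wild type replicate 1 its log2 fold change was −0.03, and without wild type replicate 2 it was 0.56. Bhmt was at 3524 and 4458 CPM in the wild type libraries and 5067 and 3302 CPM in the mutant ones, where the highest and the lowest library were both mutant. Bhmt shares 187 exon bases with Gm15622 on the opposite strand, and the annotation holds a pseudogene, Bhmt-ps1.

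Glycine is cleaved in mitochondria by a complex whose decarboxylase is Gldc. Gldc was at 322.8 and 323.0 CPM in the wild type libraries and 345 and 341 CPM in the mutant ones, with both mutant libraries higher by a small and even margin (log2 fold change 0.09 with an SE of 0.10; adjusted p in edgeR 1.0). Dmgdh and Sardh oxidise dimethylglycine and sarcosine to glycine in succession. Dmgdh was at 568 and 563 CPM in the wild type libraries and 587 and 515 CPM in the mutant ones and overlapped. Sardh was at 582 and 650.5 CPM in the wild type libraries and 545 and 533 CPM in the mutant ones, with both mutant libraries lower (−0.19 with an SE of 0.11; adjusted p in edgeR 0.917). Sardh shares 188 exon bases with Sardhos on the opposite strand, and Gls2, Pcca and Dmgdh share 97, 241 and 215 with opposite-strand genes.

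Between the wild type libraries the members differed mostly in 1 direction. Replicate 2 was above replicate 1 in 32 of 42 members, with a median log2 difference of 0.09, while over all genes tested it was above in 7493 of 14657 with a median of 0.0054. All 6 urea cycle members and all 5 methionine members were higher in wild type replicate 2, with median differences of 0.24 and 0.34. The largest were in Ass1 (0.60), Cth (0.59), Gnmt (0.48) and Arg1 (0.38). Between the mutant libraries replicate 1 was the higher in 27 of 42, and the largest difference was in Bhmt, where replicate 2 minus replicate 1 was −0.62. The group comparison of the urea cycle therefore rested on which wild type library was used, with a median log2 fold change of −0.01 without wild type replicate 1 and 0.26 without wild type replicate 2. For the methionine group these medians were −0.05 and 0.25.

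**Figure D4:**
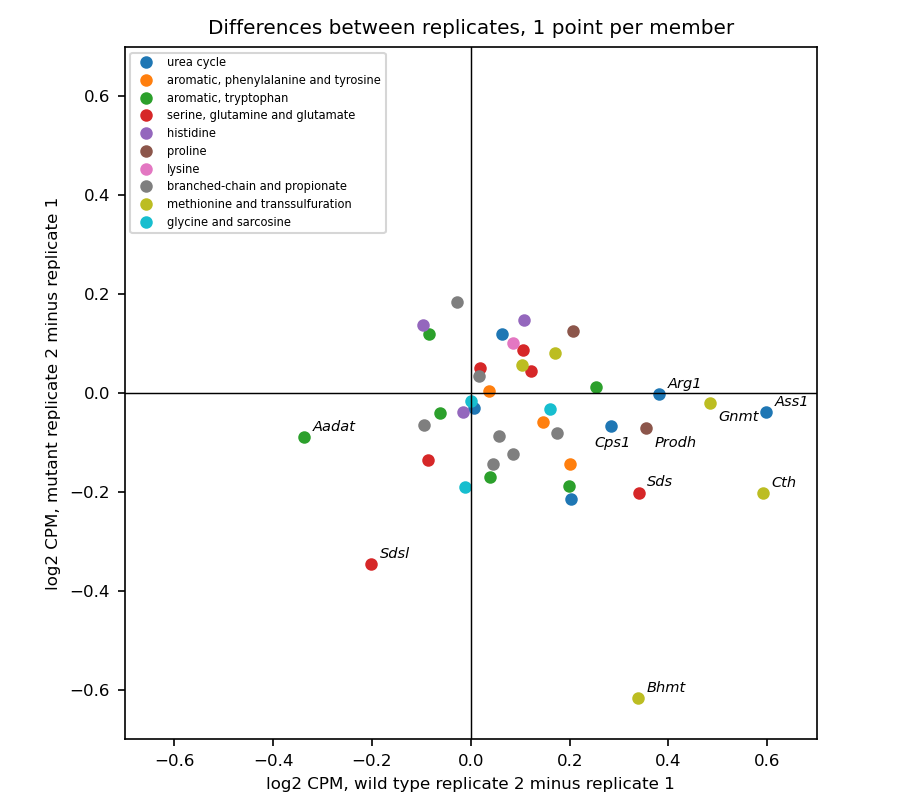
Difference in log2 CPM between replicate 2 and replicate 1 in wild type (x axis) and mutant liver (y axis), 1 point per member, coloured by pathway. Most points lie right of 0, with Ass1 and Cth near 0.60 on the x axis, and Bhmt is the lowest point at −0.62 on the y axis.

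Levels of different genes were compared per kilobase of annotated exon. On this scale Ass1 was the most abundant member, at 2034 CPM per kilobase in wild type and 1940 in mutant liver, followed by Gnmt at 1476 and 1473. Hpd, Cps1 and Mat1a came next, with 971, 928 and 888 CPM per kilobase in wild type and 943, 1024 and 996 in mutant liver. These 3 changed places between the groups, and neighbours in the order overlapped over their libraries. Within the urea cycle the order was Ass1, Cps1, Arg1, Otc, Asl and Nags in both groups, with Nags at 15.9 and 16.4 CPM per kilobase, and the neighbours Otc and Asl, at 132 and 113 in wild type and 130 and 126 in mutant liver, overlapped over the mutant libraries. Over all members 21 of 42 held the same rank in both groups, and no rank moved by more than 4 places. The lowest value, that of Mccc1, rests on an exon length of 10952 bases, the union over all annotated transcripts.

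Beyond the members, 96 further genes of the same pathways and of amino acid uptake were found and 91 were tested. In edgeR 0 passed the adjusted threshold and 6 (6.59%) had an unadjusted p below 0.05, 4 higher and 2 lower. Over all genes tested these shares were 0.341% and 6.19%. DESeq2 and limma-voom also called 0, each with 6 at an unadjusted p below 0.05. Their median log2 fold change was −0.03. The amino acid transporter subunit Slc3a1 had the smallest p among them, at 58.0 and 74.6 CPM in the wild type libraries and 84.4 and 87.7 CPM in the mutant ones (0.38 with an SE of 0.12; adjusted p in edgeR 0.421). Its exons share 601 bases with Prepl on the opposite strand. Acmsd, which diverts tryptophan carbon away from NAD, was at 32.0 and 43.7 CPM in the wild type libraries and 58.7 and 50.2 CPM in the mutant ones (0.52 with an SE of 0.16; adjusted p in edgeR 0.50). The neutral amino acid transporter subunit Slc7a8 was at 4.90 and 5.12 CPM in the wild type libraries and 6.02 and 7.69 CPM in the mutant ones (0.45 with an SE of 0.17; adjusted p in edgeR 0.599). In each of these 3 genes both mutant libraries were higher. With each library left out in turn the log2 fold change ranged from 0.21 to 0.57 in Slc3a1, 0.32 to 0.77 in Acmsd and 0.26 to 0.62 in Slc7a8, lowest without wild type replicate 1 in Slc3a1 and Acmsd and without mutant replicate 2 in Slc7a8.

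Among 21 tested regulators and stress-response genes, 0 passed in edgeR and 3 (14.3%) had an unadjusted p below 0.05, namely Trib3, Asns and Onecut1. Over all genes tested, 0.341% passed in edgeR and 6.19% had such an unadjusted p, and DESeq2 called 0.764%. Trib3 and Asns are both known targets of the amino acid stress factor Atf4. Asns, asparagine synthetase, was at 4.38 and 7.20 CPM in the wild type libraries and 17.1 and 23.8 CPM in the mutant ones, 3.53-fold higher by the means (log2 fold change 1.82 with an SE of 0.32; adjusted p in edgeR 0.348). DESeq2 called Asns (adjusted p = 8.08e-13) and limma-voom did not (0.0544). Trib3 was at 4.34 and 5.73 CPM in the wild type libraries and 2.85 and 3.02 CPM in the mutant ones (−0.78 with an SE of 0.19; adjusted p in edgeR 0.191), the opposite direction to Asns. Onecut1, a liver transcription factor chosen after its values were seen, was at 2.33 and 1.02 CPM in the wild type libraries and 3.96 and 6.46 CPM in the mutant ones (edgeR adjusted p = 0.663), and DESeq2 called it (adjusted p = 0.00106). Exons of Onecut1 share 2171 bases with Gm20649 on the same strand.

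Markers of other cells and of liver zones were read in the same libraries. All 14 Kupffer cell and macrophage markers had a positive log2 fold change. Their summed level was 368 and 392 CPM in the wild type libraries and 563 and 634 CPM in the mutant ones. The number past the adjusted threshold depended on the method, with 7 in edgeR, 11 in DESeq2 and 1 in limma-voom. The shares of all genes tested were 0.341%, 0.764% and 0.0478% in the same order. All 5 erythroid markers were positive, with sums of 238 and 266 against 295 and 334 CPM. Past the threshold were 1 in edgeR, 1 in DESeq2 and 0 in limma-voom. Of 6 lymphocyte markers 5 were positive and 1 passed in edgeR and DESeq2 but not in limma-voom, with sums of 7.83 and 8.22 against 13.5 and 12.1 CPM. That marker was Ptprc, which all leukocytes express, and the other 5 summed to 1.28 and 2.17 against 2.09 and 1.96 CPM. Of the stellate cell markers 5 of 7 were negative, with a median of −0.14, as were 5 of 5 cholangiocyte markers, with a median of −0.06, and 3 of 6 endothelial markers; 0 of them passed the threshold. The summed level of the 9 periportal markers was 8548 and 8110 CPM in the wild type libraries and 8032 and 8052 CPM in the mutant ones. That of the 9 pericentral markers was 9437 and 9490 against 9223 and 9665 CPM. The 10 hepatocyte markers summed to 104207 and 114900 CPM in the wild type libraries and 100856 and 97696 CPM in the mutant ones, and to 32703, 34203, 32923 and 32913 CPM in the same order without albumin. Of the 10, 5 were positive and 5 negative, with a median of 0.01. In tissue of mixed cells, fewer cells of a type and less RNA per cell cannot be told apart, and the part of these markers in the members' values was not tested.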

How the data were processed

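Liver RNA was sequenced in 4 libraries. The authors deposited 1 table of raw, whole-number counts for each library, keyed by Ensembl identifier; TopHat2 2.1.1, HTSeq 0.6.0 and build mm10 come from the submitters' processing notes. The kit (TruSeq RNA v2, per the labels' protocols) does not mark strand, and the counting mode is not given in the sources used here. Symbols, exon lengths and exon overlaps come from GENCODE M21 (GRCm38).

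All genes were fitted together in edgeR 4.0.16 (R 4.3.3): filterByExpr with a minimum count of 10, TMM factors of 0.983 to 1.02, and the robust quasi-likelihood test on group alone. Benjamini-Hochberg adjustment ran over all 14657 genes tested. SEs were taken from the size of the log2 fold change and its F statistic, as their quotient after taking the square root of F. DESeq2 1.42.0 and limma-voom (limma 3.58.1) were alternatives, with other scalings, filters, the replicate block and each library left out. The test was also run on simulated counts, with the spread that edgeR fits to genes of like level. These were drawn independently for each gene and library, so they do not cover shifts shared by many genes of a library. No pair of libraries was alike within counting noise (chi-square per gene 61.7 to 106).

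Members, lists and named genes were chosen with earlier results of these data known. The naming rule gives in full the members past the threshold, those with an unadjusted p below 0.05 and, in a pathway with neither, the one with the smallest p. Of related genes and regulators it takes 5 by p. Rhbg was not analysed here.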

Additional observations from a re-analysis of the deposited data

How the results depend on the processing

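With 2 libraries a group, differences of about the size of the replicate differences could not be told from spread. No member was called under any of the 12 alternatives. Of 42 members 21 kept their sign under all of them, 21 turned when 1 library was left out and 3 turned under another setting; the cause was not tested. The latter were Gls2 (0.0029 with no filter), Prodh (0.00038 in limma-voom, 0.0011 with the replicate block) and Gnmt (0.0060 with no filter, 0.0013 with a filter of 1 CPM, 0.016 in limma-voom, 0.018 with the replicate block).

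With no filter 2 related genes, Slc3a1 and Acmsd, passed in edgeR. Their log2 fold changes were then 0.39 and 0.53, beside 0.38 and 0.52 in the main fit. Leaving out each library in turn, the median log2 fold change ranged from −0.065 to 0.011 over the members, −0.0097 to 0.26 in the urea cycle, −0.11 to 0.061 in phenylalanine and tyrosine, −0.0037 to 0.098 in tryptophan, −0.079 to 0.0072 in serine, glutamine and glutamate, −0.084 to −0.025 in histidine, −0.22 to 0.057 in proline, −0.050 to 0.25 in methionine and −0.13 to 0.052 in glycine. For the members that turned it ranged from −0.34 to 0.26 in Ass1, −0.089 to 0.29 in Arg1, −0.018 to 0.11 in Nags, −0.14 to 0.061 in Hpd, −0.022 to 0.12 in Hgd, −0.029 to 0.093 in Kmo, −0.039 to 0.30 in Aadat, −0.21 to 0.13 in Sds, −0.066 to 0.28 in Sdsl, −0.065 to 0.057 in Gls2, −0.089 to 0.045 in Glud1, −0.053 to 0.098 in Uroc1, −0.18 to 0.18 in Prodh, −0.047 to 0.057 in Aass, −0.18 to 0.0085 in Bckdha, −0.032 to 0.062 in Pcca, −0.22 to 0.26 in Gnmt, −0.050 to 0.053 in Cbs, −0.030 to 0.56 in Cth, −0.27 to 0.34 in Bhmt and −0.13 to 0.052 in Dmgdh. Foxo1 ranged from −0.56 to 0.11. For the members that kept their sign it ranged from 0.007 to 0.29 in Cps1, −0.038 to −0.012 in Otc, 0.048 to 0.26 in Asl, −0.11 to −0.070 in Fah, 0.12 to 0.32 in Tdo2, −0.15 to −0.084 in Afmid, 0.12 to 0.28 in Kynu, −0.25 to −0.00062 in Haao, −0.11 to −0.060 in Got2, −0.26 to −0.15 in Agxt, −0.095 to −0.060 in Hal, −0.16 to −0.025 in Ftcd, −0.27 to −0.064 in Aldh4a1, −0.22 to −0.043 in Bckdhb, −0.13 to −0.096 in Ivd, −0.22 to −0.079 in Mccc1, −0.22 to −0.099 in Mccc2, −0.11 to −0.028 in Pccb, 0.083 to 0.25 in Mat1a, 0.079 to 0.091 in Gldc and −0.27 to −0.11 in Sardh. The median of the related branched-chain genes was 0.0085 without mutant replicate 2 and −0.15 without mutant replicate 1.

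The replicate numbers were not shown to pair the libraries: differences between replicates 1 and 2 correlated by −0.0072 between the groups over 14657 genes. With the replicate block 0 members passed, their median was −0.01, and Asns passed in edgeR (adjusted p = 2.28e-07), as it did without wild type replicate 2 (0.0274). With no filter Asns (8.38e-22), Onecut1 (2.01e-09) and Trib3 (0.0137) passed in edgeR. Their log2 fold changes were then 1.83, 1.63 and −0.77, beside 1.82, 1.62 and −0.78 in the main fit. The share of all genes passing with no filter was not counted, so these adjusted p-values have no background beside them. The alternatives for genes that are no member, and for the related branched-chain genes, were chosen after seeing the data.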
